A study of Gallus gallus with 8 samples.

Results

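The genes described here are a set of red blood cell genes of the chick embryo picked by name from the deposited gene tables: 5 globins and 4 genes of red cell formation, 9 of 17778 listed genes. Other red cell genes, such as the histone H5, are listed too and are described beside them. The rule that picked them used names and not values, but it was set with earlier results of these data known. The globins are HBPI, HBAD, HBA, HBB and HBE, and the other 4 are KLF1, TAL1, EPB42 and TFR1, the entry name of the transferrin receptor TFRC. All 9 had counts in every library.

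RNA came from 8 pools of dissected chick (Gallus gallus) embryo tissue, with 1 library to each tissue. From the heart came 4 libraries: the sinoatrial node (the pacemaker region as it develops), the left atrium, the apex of the common ventricle and the atrioventricular junction. The lateral plate mesoderm, the sheet that holds the heart's progenitors, gave the other 4: its anterior, left and posterior parts and the pacemaker progenitor field. No treatment or genetic change was given in the labels. The mesoderm libraries were taken at Hamburger-Hamilton (HH) stage 8 and the junction at HH 17 to 18, and no stage was given for the node, atrium or ventricle. Tissue and stage therefore cannot be told apart in any comparison of heart with mesoderm. The sources used here do not say how many embryos went into a pool or whether blood was rinsed from the tissue.

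Hemoglobin is a tetramer of alpha-type and beta-type globin chains around haem, and red blood cells are its main source. In the chick the first, primitive red cells form in the yolk sac and carry embryonic hemoglobins built from pi, alpha-D and alpha-A chains with rho and epsilon chains, while later red cells carry alpha-D and alpha-A chains with beta chains. TAL1 is a transcription factor needed from the earliest steps of blood formation, KLF1 drives globin and other red cell genes, TFRC takes up the iron that haem needs, and EPB42 (protein 4.2) links the red cell membrane to its skeleton.

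Total counts ran from 10258697 in the ventricle to 17189803 in the atrium, and 14228 to 14961 genes had a count. Levels are given in CPM, the read count divided by the library's size, with sizes adjusted by trimmed mean of M-values (TMM) factors, so that 1 read was worth 0.0541 to 0.109 CPM. Of 10 heart muscle markers, 8 were found by name and all 8 were called higher in the heart (median log2 ratio 6.68). Of 7 lateral plate markers, 5 were found and counted in every mesoderm library, and 1 of them, TBX5, was called higher in the heart (median log2 ratio 0.40). By the same call, defined below, 5.62% of 10454 tested genes were higher in the heart in all pairs of libraries. With 1 library per tissue there was no replicate, so no p-value was computed, and every statement compares libraries. A gene was called between a pair of libraries when CPM + 1 differed by at least 2-fold, its higher level reached 5 CPM, and the ratio of counts had a 95% exact interval that excluded 1. Intervals cover counting error only and say nothing of the variation between pools of embryos.

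Globin transcripts were abundant in the 4 heart libraries and sparse in the 4 mesoderm libraries. The 5 globins together took 2.48% of all counts in the node, 3.99% in the atrium, 2.003% in the ventricle and 1.501% in the junction. In the mesoderm they took 0.00486% in the anterior part, 0.00561% in the left part, 0.00779% in the pacemaker field and 0.00459% in the posterior part. The atrium held the largest share (95% exact interval 3.98 to 3.99%) and the posterior mesoderm the smallest (0.00420 to 0.00502%). Ranked among all listed genes, the highest globin stood at place 6 in the atrium and 25 in the junction, and the mesoderm libraries placed every globin between 4740 and 9164. In bulk tissue, fewer cells of a type and less RNA per cell cannot be told apart.

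**Figure D1:**
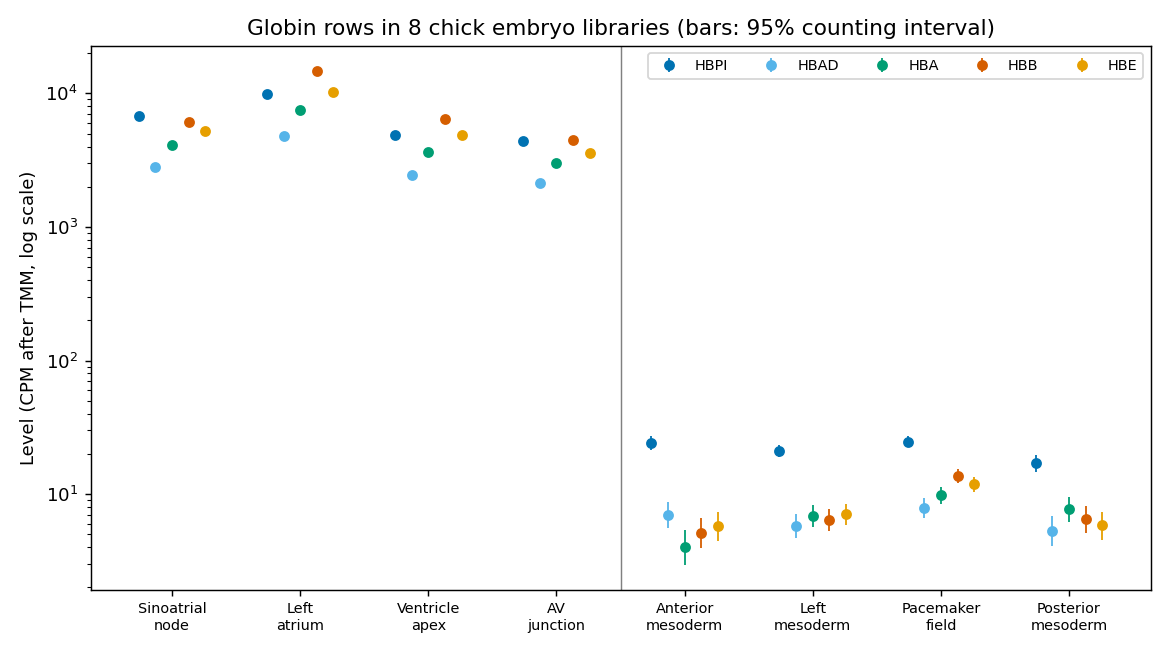
Level of each of the 5 globins in the 8 libraries (CPM after TMM scaling, log axis), with 1 point per library and bars for the 95% exact interval of its count. The heart points lie between 2127 and 14734 CPM and the mesoderm points between 4.02 and 24.7 CPM, with the atrium highest for every globin.

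HBPI, the pi chain of embryonic hemoglobin and the alpha-type globin of the earliest red cells, reached 9841 CPM in the atrium, 6727 in the node, 4915 in the ventricle and 4412 in the junction. In the mesoderm HBPI stood at 24.1 CPM in the anterior part, 21.2 in the left part, 24.7 in the pacemaker field and 17.0 in the posterior part. The heart and mesoderm ranges did not overlap, and the heart mean was 298-fold the mesoderm mean (log2 ratio of means 8.15). The tables place HBPI on chromosome 14 at 12722492 to 12724596, plus strand, in a genome build that no source used here gives. A gene listed on the minus strand within the same span, known only by a database identifier, held 93.7 to 96.1% of HBPI's count in every library, so reads of the 2 strands cannot be told apart there. The globin shares above leave that gene's counts out. With them the share was 3.12% in the node, 4.79% in the atrium, 2.42% in the ventricle and 1.86% in the junction, and 0.00633 to 0.0104% in the mesoderm.

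HBAD, the alpha-D chain found in both embryonic and later hemoglobins, lies downstream on chromosome 14 (12726666 to 12727592, plus strand). Its level was 2789 CPM in the node, 4817 in the atrium, 2445 in the ventricle and 2127 in the junction. In the mesoderm it was 6.99 CPM in the anterior part, 5.79 in the left part, 7.90 in the pacemaker field and 5.32 in the posterior part. The heart libraries were again all above the mesoderm libraries, with a heart mean 468-fold the mesoderm mean (log2 ratio 8.67).

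HBA, the alpha-A chain and the last globin of the cluster (12729703 to 12730496, plus strand), had 4130 CPM in the node, 7463 in the atrium, 3635 in the ventricle and 3023 in the junction. Its mesoderm levels were 4.02 CPM in the anterior part, 6.89 in the left part, 9.79 in the pacemaker field and 7.72 in the posterior part. The ranges did not overlap, and the heart mean was 642-fold higher (log2 ratio 9.14).

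HBB, the row named for the beta chain of later red cells, had 6114 CPM in the node, 14734 in the atrium, 6452 in the ventricle and 4482 in the junction. In the mesoderm it had 5.16 CPM in the anterior part, 6.42 in the left part, 13.7 in the pacemaker field and 6.52 in the posterior part. It had the widest gap of the 9 genes between the heart and the mesoderm, a fold of 999.97 (log2 ratio 9.79). The row runs over 8455 bases of chromosome 1 (199433572 to 199442026, plus strand) and encloses another listed gene, and the rho and beta-H chains had no row of their own by name. Which beta-type chains the HBB counts hold therefore cannot be told apart.

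HBE, the epsilon chain of embryonic hemoglobin, follows HBB on chromosome 1 (199444793 to 199446420, plus strand). It had 5251 CPM in the node, 10160.2 in the atrium, 4849.6 in the ventricle and 3579.6 in the junction. Its mesoderm levels were 5.77 CPM in the anterior part, 7.06 in the left part, 11.8 in the pacemaker field and 5.83 in the posterior part. No mesoderm library reached any heart library, and the heart mean was 782-fold the mesoderm mean (log2 ratio 9.43). Globins are close copies of each other, so how the reads were split between them is uncertain.

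The 4 genes of red cell formation did not move alike. EPB42 and KLF1 lay with the globins on the heart side, TFR1 was higher in the heart by a smaller step, and TAL1 lay on the mesoderm side.

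EPB42, on chromosome 20, had 15.6 CPM in the node, 35.1 in the atrium, 16.6 in the ventricle and 11.4 in the junction. In the mesoderm it was near the level of single reads, with 2 counts in the anterior part, 4 in the left part, 2 in the pacemaker field and 3 in the posterior part, or 0.108 to 0.257 CPM. The heart mean was 102-fold the mesoderm mean (log2 ratio of CPM + 1 4.12), and even the junction was 44.2-fold above the highest mesoderm library.

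KLF1, on chromosome 8 of the tables, had 10.1 CPM in the node, 18.0 in the atrium, 6.84 in the ventricle and 3.39 in the junction. The mesoderm libraries held 5 counts in the anterior part, 8 in the left part, 5 in the pacemaker field and 5 in the posterior part, or 0.270 to 0.463 CPM. All heart libraries were above all mesoderm libraries, by 24.0-fold between the means (log2 ratio of CPM + 1 2.92). The row is taken as KLF1 on its deposited name alone, since the chicken RefSeq gene table has no gene of that symbol.

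TFR1, on chromosome 9, had 79.1 CPM in the node, 104.9 in the atrium, 90.6 in the ventricle and 77.0 in the junction. Its mesoderm levels were 44.3 CPM in the anterior part, 41.1 in the left part, 43.9 in the pacemaker field and 41.3 in the posterior part. The groups did not overlap, but the step was small: the heart mean was 2.06-fold the mesoderm mean (log2 ratio 1.03). With libraries scaled to their total counts the log2 ratio was 0.71, so its size depends on the scaling. The 4 mesoderm libraries could not be put in order, as the interval of the ratio included 1 for each neighbouring pair.

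TAL1, on chromosome 8, ran the other way. It had 3.02 CPM in the node, 5.22 in the atrium, 3.36 in the ventricle and 3.65 in the junction, from 31 to 76 counts. In the mesoderm it had 11.3 CPM in the anterior part, 16.4 in the left part, 14.4 in the pacemaker field and 19.2 in the posterior part. All mesoderm libraries were above all heart libraries, and the mesoderm mean was 4.02-fold the heart mean (log2 ratio of CPM + 1 -1.76). The row covers only 419 bases, so it can hold only part of the transcript's reads.

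**Figure D2:**
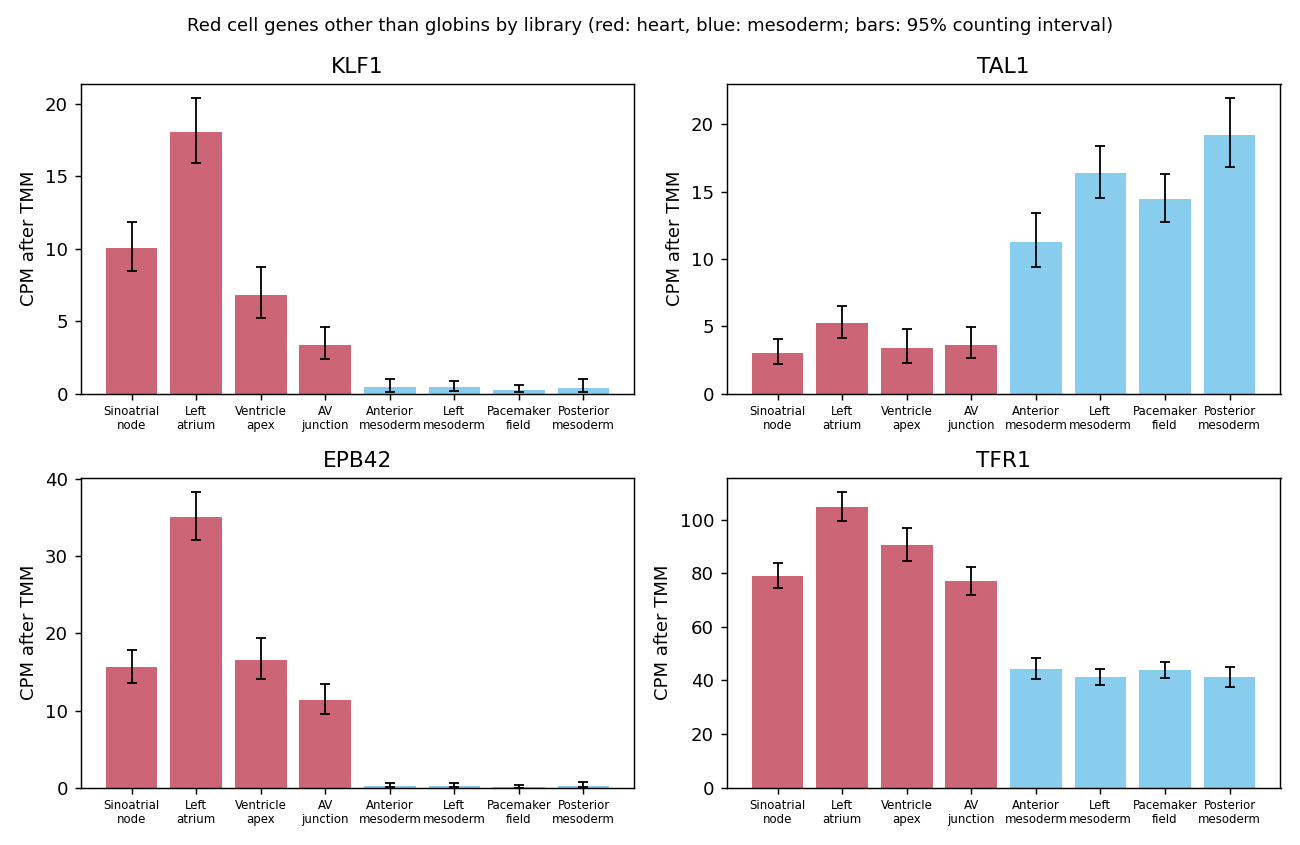
Levels of KLF1, TAL1, EPB42 and TFR1 in the 8 libraries (CPM after TMM scaling, linear axes from 0), with 1 column per library, red for heart and blue for mesoderm, and error bars for the 95% exact interval of each count. KLF1, EPB42 and TFR1 are higher in the heart libraries, and TAL1 is at 3.02 to 5.22 CPM there against 11.3 to 19.2 CPM in the mesoderm.

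Between heart and mesoderm, 6 of the 9 genes (the 5 globins and EPB42) were called higher in the heart in all 16 pairs of libraries, where 5.62% of 10454 tested genes were. None was called lower in all 16 pairs, where 2.53% of tested genes were. The other 3 were called in some pairs. KLF1 was called higher in 12 pairs, and the remaining pairs were those with the junction, where its level was under 5 CPM; 9.37% of tested genes were called higher in at least 12 pairs. TAL1 was called lower in 15 pairs, missing only the atrium against the anterior mesoderm, and 3.05% of tested genes were lower in at least 15 pairs. TFR1 was called higher in 8 pairs, as 14.1% of tested genes were in 8 or more. Without any fold threshold, the heart libraries lay above the mesoderm libraries for 25.6% of tested genes and below them for 25.6%, which is the background of the 8 and 1 genes here that did not overlap.

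Within the heart the atrium was highest for all 9 genes, though for TAL1 the junction was within counting error of it (1.43-fold, 0.968 to 2.14). The share of all tested genes that were highest in the atrium was not computed. Earlier results of these data had already given higher blood genes in the atrium library, so this comparison was not chosen blind. None of the 9 was called lower in the atrium, where 4.55% of tested genes were against the node, 3.09% against the ventricle and 3.59% against the junction. The excess was 1.46-fold over the node for HBPI (95% interval 1.45 to 1.47), 1.73-fold for HBAD, 1.81-fold for HBA, 1.93-fold for HBE and 2.41-fold for HBB. The globins thus did not differ by a common factor. The intervals of these ratios did not include 1, but they cover counting error only.

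Against the node, 2 of 9 genes were called higher in the atrium, HBB and EPB42 (2.25-fold, 1.92 to 2.65), where 2.97% of tested genes were. Against the ventricle, 6 of 9 were called (HBPI, HBA, HBB, HBE, KLF1 and EPB42), where 4.30% of tested genes were. Several sat at the threshold: HBPI was 2.002-fold, HBA 2.05-fold and HBE 2.10-fold higher, and HBAD at 1.97-fold missed it. With libraries scaled to their total counts, only HBB and KLF1 of these 6 were called. HBB was 2.28-fold higher than in the ventricle and KLF1 2.64-fold (1.999 to 3.53).

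Against the junction, 7 of 9 genes were called higher in the atrium, all but TAL1 and TFR1, where 3.23% of tested genes were. KLF1 differed most, by 5.33-fold (3.80 to 7.66), then HBB by 3.29-fold and EPB42 by 3.09-fold (2.54 to 3.77). HBPI differed by 2.23-fold, HBAD by 2.26-fold, HBA by 2.47-fold and HBE by 2.84-fold. HBB and EPB42 were the genes called higher in the atrium than in each of the other 3 heart libraries, as 0.424% of tested genes were. EPB42 was not called over the node or the ventricle with total-count scaling (log2 ratios 0.90 and 0.95) or with a pseudocount of 5 (0.96 and 0.89). Beside these ratios, the 9 endothelial markers found by name summed to 313 CPM in the atrium, 300.2 in the node, 322 in the ventricle and 145 in the junction. Of these sums ESAM alone made up 180 CPM in the atrium and 173 in the node. Against the ventricle, ESAM was called higher in the atrium, while CD34, SOX7 and ROBO4 were called lower. Of all tested genes 4.30% were called higher in that pair and 3.09% lower. Against the junction, 4 of the 9 markers (TEK, SOX7, CD34 and ESAM) were called higher in the atrium and none lower. In the junction pair 3.23% of tested genes were higher in the atrium and 3.59% lower. Against the node, VWF was called lower in the atrium and no marker higher, where 4.55% of tested genes were lower and 2.97% higher. The part of the endothelial markers in the atrium-to-junction ratios was not tested.

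Below the atrium the differences were smaller. The node was above the ventricle by 1.37-fold for HBPI, 1.14-fold for HBAD and HBA and 1.08-fold for HBE, while HBB was 1.06-fold higher in the ventricle. Between node and ventricle 8 of the 9 genes were tested, and none of them was called in either direction. Of all tested genes, 7.07% were higher in the node and 4.66% lower. TAL1 was under 5 CPM in the node, the ventricle and the junction, so it could not be called between them. The junction was lowest for every globin, for KLF1, EPB42 and TFR1, though not for TAL1. For TFR1 the node and the junction were within counting error (1.03-fold, 0.940 to 1.12). How many of all tested genes were lowest in the junction was not counted. KLF1 was the one gene called higher in the node than in the junction, where 3.81% of tested genes were and 3.39% were lower, and none was called between ventricle and junction, where 4.50% of tested genes were higher in the ventricle and 6.72% lower.

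The order atrium, node, ventricle, junction from high to low was shared by HBPI, HBAD, HBA, HBE and KLF1, and by 198 of 9916 genes tested within the heart. For HBB, EPB42 and TFR1 the ventricle came before the node. The difference between these 2 libraries was within counting error for EPB42 (1.06-fold, 0.860 to 1.32), and the neighbours in TAL1's heart order could not be separated, each interval including 1. TFR1 differed little across the heart, by 1.36-fold between atrium and junction.

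In the mesoderm the globins were low but counted in every library, from 46 reads of HBA in the anterior part to 456 of HBPI in the pacemaker field. The pacemaker field was highest for all 5, and how many of all tested genes were highest there was not counted. Against the anterior mesoderm, HBA was 2.44-fold higher there (1.75 to 3.44) and HBB 2.65-fold (1.99 to 3.59). In that pair 0.267% of 8992 tested genes were called in that direction and 0.389% in the other. These 2 calls were the only ones between mesoderm libraries among the 7 genes tested. KLF1 and EPB42 were under 5 CPM in every mesoderm library and could not be called. With a pseudocount of 5 neither HBA nor HBB was called, and HBA was not at a minimum of 10 CPM. In the remaining pairs the share of tested genes called was 0.529% and 0.848% for the anterior part higher and lower than the left, and 0.905% and 1.04% for the anterior part against the posterior. It was 0.431% and 0.111% for the left part against the pacemaker field, 1.49% and 0.384% for the left part against the posterior, and 0.709% and 0.299% for the pacemaker field against the posterior. HBB was also 2.10-fold higher in the pacemaker field than in the posterior part (1.62 to 2.75) and 2.13-fold higher than in the left part, below the threshold on CPM + 1. HBE was 1.68-fold higher than in the left part (1.34 to 2.11).

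For the alpha-type HBPI and HBAD the ratios to the anterior part were smaller. HBPI in the pacemaker field was 1.02-fold the anterior level, with an interval of 0.879 to 1.19, and HBAD 1.13-fold (0.854 to 1.503). Against the posterior part the pacemaker field was 1.45-fold higher for HBPI and 1.48-fold for HBAD. HBA was 1.27-fold higher in that pair (0.979 to 1.65). KLF1 and EPB42, with 8 counts or fewer in each mesoderm library, gave no order there. TAL1 was lowest in the anterior part, 1.28-fold below the pacemaker field (1.03 to 1.59), and its other neighbours in the mesoderm order were within counting error.

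The globins also made up a different mixture in the mesoderm. HBPI was 20.9 to 26.9% of globin counts in the heart libraries, lowest in the atrium, and 36.3 to 52.4% in the mesoderm libraries, highest in the anterior part. HBB was 24.4 to 31.3% in the heart and 11.2 to 20.2% in the mesoderm, and HBE 20.3 to 21.8% against 12.5 to 17.5%. None of these 3 ranges overlapped between heart and mesoderm, while those of HBA (15.9 to 17.2% against 8.73 to 18.2%) and HBAD (10.2 to 12.1% against 11.6 to 15.2%) did. The 3 alpha-type globins together held 47.1 to 54.6% of globin counts in the heart and 62.4 to 76.3% in the mesoderm. These are shares of counts and not of molecules, and each is compared only with the same gene in another library.

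**Figure D3:**
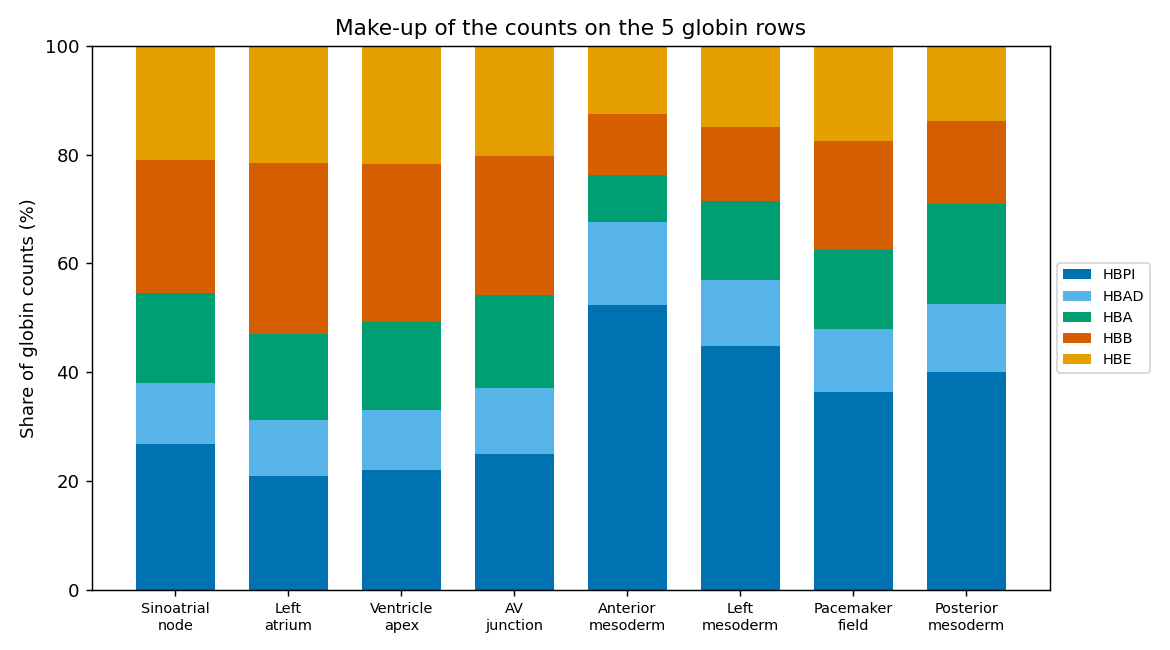
Share of each globin in the counts of the 5 globins (percent), with 1 stacked bar per library. HBPI takes 20.9 to 26.9% in the heart libraries and 36.3 to 52.4% in the mesoderm libraries.

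Set against the globins of the same library, the red cell genes fell into different patterns in the heart. EPB42 kept nearly the same ratio, with 0.623 counts per 1000 globin counts in the node, 0.747 in the atrium, 0.745 in the ventricle and 0.646 in the junction, a range of 1.20-fold. KLF1 had 0.402 in the node, 0.384 in the atrium, 0.307 in the ventricle and 0.192 in the junction, a range of 2.09-fold with the junction low. TFR1 had 3.16 in the node, 2.23 in the atrium, 4.06 in the ventricle and 4.37 in the junction. Since the level of TFR1 differed only 1.36-fold across the heart, this order mostly reflects the globin counts it is divided by. TAL1 ranged from 0.111 in the atrium to 0.207 in the junction.

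In the mesoderm these ratios were higher for all 4 genes, which follows from the larger heart-to-mesoderm folds of the globins. TFR1 had 647 to 974 counts per 1000 globin counts and TAL1 213 to 453. KLF1 had 3.98 to 10.1 and EPB42 1.59 to 6.07, both from 8 counts or fewer per library. The root mean square distance between the centred log2 heart profiles of EPB42 and HBB was 0.07, the second closest of the 36 pairs of these genes after HBAD and HBA at 0.04.

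**Figure D4:**
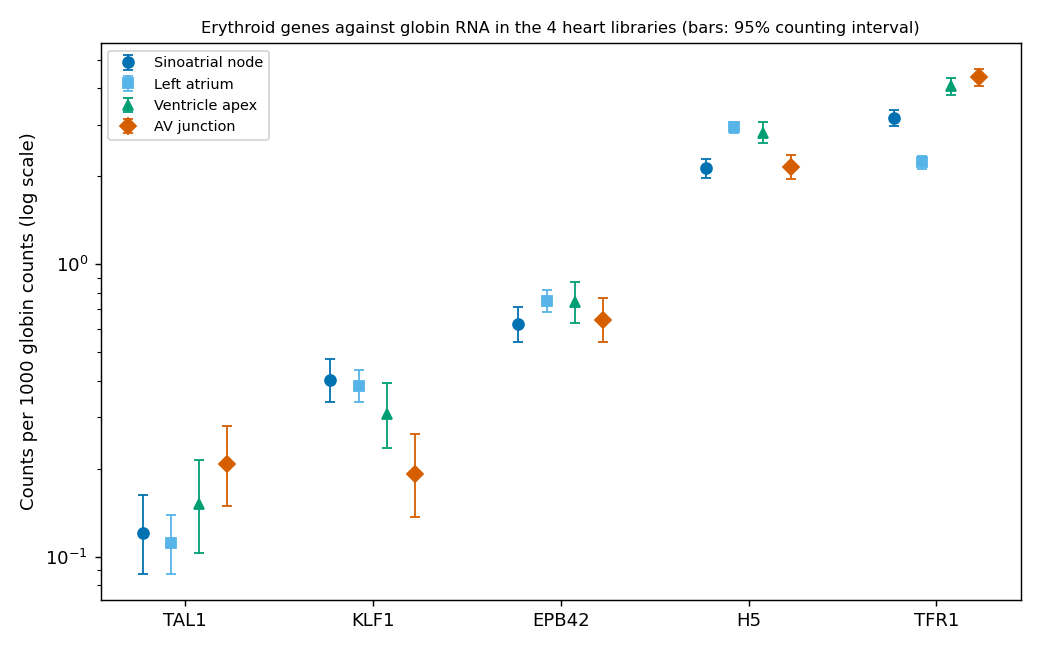
Counts of KLF1, TAL1, EPB42, TFR1 and the histone H5 per 1000 globin counts in the 4 heart libraries, with bars for the 95% exact interval. EPB42 spans 0.623 to 0.747, while KLF1 falls to 0.192 in the junction.

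Other genes of the red cell were taken from lists of their functions. H5, the linker histone that compacts chromatin in the nucleated red cells of birds, had 53.2 CPM in the node, 138 in the atrium, 62.8 in the ventricle and 37.9 in the junction, and 1.75 to 2.75 CPM in the mesoderm. It was called higher in the heart in all 16 pairs, as 5.62% of tested genes were. It was also called higher in the atrium than in each other heart library, as 0.424% of tested genes were. Across the heart the count of H5 per 1000 globin counts ranged 1.38-fold, from 2.13 in the node to 2.94 in the atrium.

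Of the haem synthesis and mitochondrial iron genes, 11 of 14 had a row by name and 10 were tested. In all pairs 3 were called higher in the heart and none lower, with a median log2 ratio of 1.04 over the 10 against 0.02 over all tested genes. Over all tested genes, 5.62% were called higher in the heart in all pairs and 2.53% lower. UROS, the uroporphyrinogen synthase, had 10.9 to 16.3 CPM in the heart and 3.76 to 4.40 in the mesoderm. CPOX, the coproporphyrinogen oxidase, had 29.0 to 48.0 CPM against 11.4 to 12.3. SLC25A37 (mitoferrin, which brings iron into mitochondria) had 15.5 to 28.8 CPM against 2.36 to 5.32. FECH, which inserts iron into the haem ring, was not called between heart and mesoderm, and at 81.6 CPM in the atrium it was called higher there than in the node (34.9) and the junction (35.0). Of all tested genes, 2.97% were called higher in the atrium than in the node and 3.23% higher than in the junction. ALAS2, the red cell form of the first enzyme of the pathway, was not found by name and is not analysed here.

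Of the iron genes, 8 of 13 were found and tested, and 2 were called higher in the heart and none lower, with a median log2 ratio of 0.42. The background for this and for the membrane and cytoplasm lists is again 5.62% of tested genes higher. STEAP3, which reduces iron taken up through the transferrin receptor, had 11.6 to 22.8 CPM in the heart and 0.772 to 4.46 in the mesoderm. HMOX1, which breaks haem down, had 15.2 to 27.6 CPM against 4.80 to 6.86. Of the membrane and cytoskeleton genes only 5 of 16 were found and 3 tested, of which EPB42 was the 1 called (median log2 ratio 2.76), so that list is thin. Of 11 genes of red cell cytoplasm and chromatin, 6 were found and 4 tested, and H5 and the glucose transporter SLC2A1 (314 to 415 CPM in the heart, 120 to 138 in the mesoderm) were called higher. The median log2 ratio of these 4 genes was 1.23.

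Among 17 blood transcription factors, 10 had a row and 6 were tested, KLF1 and TAL1 included. None was called higher in the heart in all pairs and 1 was called lower, with a median log2 ratio of -0.64, where 5.62% of all tested genes were higher and 2.53% lower. That gene was GATA2, a factor of blood stem and progenitor cells, which had 8.12 CPM in the node, 11.6 in the atrium, 9.66 in the ventricle and 4.60 in the junction. In the mesoderm GATA2 had 67.5 CPM in the anterior part, 61.7 in the left part, 75.5 in the pacemaker field and 116 in the posterior part. TAL1 and GATA2 were thus both on the mesoderm side and both highest in the posterior part, although for TAL1 the posterior and left parts were within counting error (1.17-fold, 0.980 to 1.40). GFI1B, SOX6, IKZF1 and MYB were under 5 CPM in all libraries and so were not tested. GFI1B, a transcriptional repressor that acts in red cell and platelet lineages, had 1.04 to 2.93 CPM in the heart and 0 to 0.0541 in the mesoderm. SOX6 (1.24 to 3.13 CPM against 0.0874 to 0.487) and IKZF1 (0.347 to 0.868 CPM against 0) were also higher in the heart. MYB ran the other way, at 0.343 to 0.934 CPM against 2.95 to 4.02. These levels are low, and with no fold needed the heart lay wholly above the mesoderm for 25.6% of tested genes and below for 25.6%.

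Of 8 cytokine and receptor genes of red cell progenitors, 3 were found and 2 tested, and KITLG (stem cell factor, the ligand of KIT) was called lower in the heart, as 2.53% of all tested genes were, at 1.03 to 1.41 CPM against 10.1 to 11.6 in the mesoderm. With 2 genes tested, the list's median of -1.25 is their mean.

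**Figure D5:**
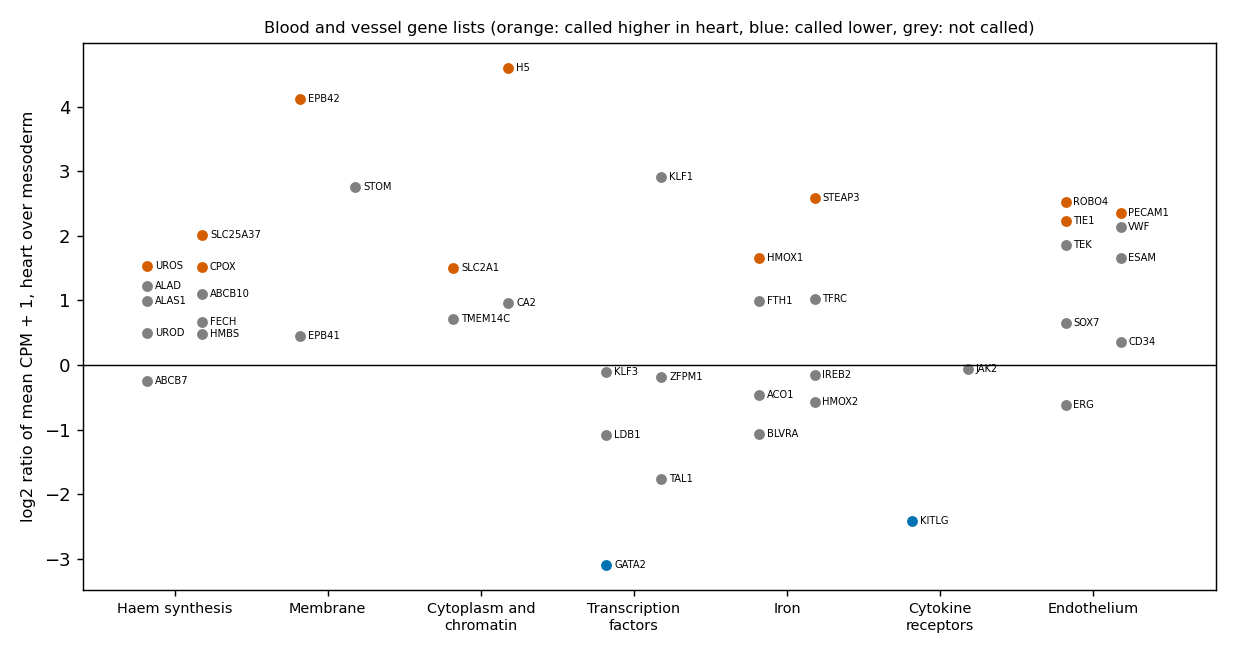
Log2 ratio of mean CPM + 1 in the heart over the mesoderm libraries for the tested genes of 6 red cell lists and of the endothelial markers, with 1 labelled point per gene, orange where called higher in the heart in all pairs, blue where called lower and grey where not called. H5 at 4.60 and EPB42 at 4.12 lie highest, and GATA2 at -3.10 and KITLG at -2.42 lie lowest.

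Markers of other cells were measured in the same contrast. Of 12 endothelial markers, 9 were found and 3 (PECAM1, TIE1 and ROBO4) were called higher in the heart and none lower, where 5.62% of all tested genes were higher and 2.53% lower, with a median log2 ratio of 1.85 and summed levels of 145 to 322 CPM in the heart and 81.6 to 98.4 CPM in the mesoderm. Of 10 white blood cell markers only LYZ and CD3E were found, with summed levels of 2.61 to 4.78 CPM in the heart and 2.22 to 14.5 in the mesoderm, and no gene was called. Of 7 thrombocyte markers GP9 and GP1BB were found, both under 5 CPM in every library. No marker found by name was at 0 in all libraries, and the part of these cells in the levels of TAL1, GATA2 or TFR1 was not tested.

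The genes with a profile most like that of the 5 globins over the 8 libraries were sought among 5239 named genes outside the lists, by the root mean square distance between log2(CPM + 1) profiles centred on their own mean. The nearest to the mean of the 5 globins was TECRL at 0.37, and LDB3, APOBEC2, CSRP3 and ADCYAP1 followed at 0.82 to 0.86. For EPB42 the nearest were CA13 (0.22), a carbonic anhydrase, and MGLL (0.29). For KLF1 they were CD2 (0.34) and TDH (0.35), for TAL1 TPBG (0.09) and PLA1A (0.10), and for TFR1 OAZ2 (0.08) and CSTB (0.10). Since the 8 libraries divide into heart and stage 8 mesoderm, these distances mostly describe a like step between those groups, in which tissue and stage cannot be told apart.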

How the data were processed

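RNA from pooled chick embryo tissue was extracted with Trizol, selected for poly(A) and sequenced from both ends with 36 bases on an Illumina sequencer, per the labels' protocols. The submitters' processing notes name Bowtie and TopHat without versions. The genome build, the annotation, the counting program and the use of strand are not given in the sources used here. Read counts of 7 libraries and CPM of all 8 were deposited, and the CPM, per the file headers and the values, are counts scaled by the authors to the library total (largest deviation 4.9e-11 CPM). Each count column was matched to its library by its header, not by the table it stood in. For the posterior mesoderm, counts were rebuilt from the CPM, of which 100% came out as whole reads within 0.01.

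Each of the 8 tissues is 1 library, so no count test was run. TMM factors (edgeR 4.0.16, R 4.3.3) ran from 0.848 to 1.18. Log2 ratios and calls used CPM + 1, which understates differences of low genes. Fold values and their intervals were taken without the added 1. Calls needed 2-fold, 5 CPM and an exact 95% interval excluding 1, and a heart-to-mesoderm call needed all 16 pairs. Genes were tested at 5 CPM or more in at least 1 library of the comparison. All 9 genes are named with every library's value. Of 12 lists with 128 entries, 70 had a row. From each list, called genes (up to 6), or else its highest, could be named. Entry names were matched to RefSeq (assembly GRCg7b) by shared neighbours, 6 of them added after the tables were seen. The untested transcription factors named and H5's ratio to globins fall outside the naming rule. The genes and lists were chosen with earlier results of these data known. Alternatives were other scalings, pseudocounts, minimum levels and folds, and leaving out each library.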

Additional observations from a re-analysis of the deposited data

How the results depend on the processing

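No paired analysis was possible because each tissue is 1 library and no replicate numbers are shared. The number of the 9 genes called higher in the heart in all pairs was 6 or 7 in every alternative run. TAL1 became the 1 gene called lower in all pairs with total-count scaling, a pseudocount of 0.5, a 1.5-fold threshold, or without the atrium or the anterior mesoderm. The atrium over the node (2 genes) gave 1 (HBB) with total counts, 1 (HBB) with a pseudocount of 5, 7 at 1.5-fold and 0 at 3-fold. The atrium over the ventricle (6) gave 2 with total counts and 0 at 3-fold, and the atrium over the junction (7) gave 2 at 3-fold. The node over the junction (1) gave 0 with a pseudocount of 5, 2 at 1.5-fold and 0 at 3-fold, and the ventricle over the junction (0) gave 1 at 1.5-fold. The pacemaker field over the anterior mesoderm (2) gave 0 with a pseudocount of 5, 1 (HBB) at a minimum of 10 CPM and 0 at 3-fold. Over the left mesoderm (0) it gave 1 with a pseudocount of 0.5 and 2 at 1.5-fold, and over the posterior mesoderm (0) 1 with total counts, 1 with a pseudocount of 0.5 and 2 at 1.5-fold. At 1.5-fold the left mesoderm gave 1 and the posterior mesoderm 2 over the anterior. The median log2 ratio of the 9 genes, heart over mesoderm, was 8.15, against 7.84 with total counts and 7.92 with a pseudocount of 5. In each of these settings that median is the value of HBPI, the lowest of the 5 globins. It does not describe the other 4 genes. For atrium over node the median of the 9 was 0.79, against 0.57 with total counts and 0.81 with a pseudocount of 0.5. For atrium over ventricle it was 1.04, against 0.95 with total counts and 0.98 with a pseudocount of 5. Total counts moved the median of all genes from 0.02 to -0.28 (heart over mesoderm) and from 0.01 to -0.20 (atrium over node). Leaving out the 10 most abundant other genes raised the globin share to 2.83% in the node, 4.73% in the atrium, 2.36% in the ventricle, 1.86% in the junction, 0.00874% in the pacemaker field, and 0.00559%, 0.00634% and 0.00519% in the anterior, left and posterior mesoderm. No direction reversed among 180 recomputed ratios, but 32 of them moved beyond their counting interval. Of 250 recomputed counts of calls, 224 were within 1.5 times the reported count, and where they were not the cause was not tested. Most of the 250 belong to comparisons with a reported count of 0, where a recomputed 0 is within the limit. The total therefore says little of how stable the calls between regions are, which the counts above show. Composition per coding length was not run, for want of protein lengths. Depth limits KLF1 and EPB42 in the mesoderm, at 8 counts or fewer.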

Other observations

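MB, the oxygen-binding myoglobin of muscle and the only gene found among the other globin-fold proteins, had 9.70 CPM in the node, 116 in the atrium, 26.3 in the ventricle and 29.7 in the junction, and 0.270 to 0.437 CPM in the mesoderm. It was called higher in the heart in all 16 pairs, and higher in the atrium than in each of the other 3 heart libraries, as HBB, EPB42 and H5 were. Of all tested genes, 5.62% had the first call and 0.424% the second. The lowest heart library of MB was the node and not the junction, where the red cell globins were lowest.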
